A study of Mus musculus with 6 samples.

Results

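The regions described here are the Ago2 peaks of mouse myocytes that lie outside annotated genes. Peaks of 5 RISC-IP libraries were merged wherever they overlapped or touched, and intervals that overlapped no gene body of the GENCODE M21 annotation of GRCm38 (mm10) were kept. Of 41363 merged intervals, 821 met this rule. Among them 302 began within 5 kb downstream of the 3′ end of a gene, on that gene's strand, and 519 did not. The 302 were divided further by the type of that gene, which was protein-coding for 144, a pseudogene for 122 and of another type for 36.

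Ago2 is the protein of the RNA-induced silencing complex (RISC) that carries the miRNA, and most of the mRNA it holds is bound through sites in the 3′UTR. The annotated 3′ end of a gene can fall short of the end of its longest transcript, so RNA of a longer 3′UTR may map past the gene. Processed pseudogenes are copies of mRNAs inserted elsewhere in the genome, and reads of an mRNA may map to them where the copy is close to identical.

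The cells were primary mouse satellite cells (MSC), the muscle progenitors, and the labels give no strain, genotype or number of animals for any group. The source name calls the samples myotubes. Both groups spent 30 h in differentiation medium (DM), were lipofected with duplex RNA at 10 nM per the labels (the study's methods give another concentration), either miR-222 or siGFP as control, and were lysed 16 h later for precipitation with an Ago2 antibody. The labels place control-IP replicates 1 and 2 in experiment 1 together with miR-222-IP replicate 1, and the remaining 3 libraries in experiment 2. The title of miR-222-IP replicate 2 reads miR22, whereas its condition label reads miR222. Control-IP replicate 3 of experiment 2, whose peaks were wide, was left out.

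The 5 libraries held between 10579 and 37762 peaks, each with its position and its −log10 p above 20. The lists give no read counts, which leaves the depth behind a peak unknown, and a −log10 p depends on depth as well as on enrichment. Exons of 8 to 11 of 11 myocyte markers had a peak in these libraries, against 2 to 3 of 5 markers of undifferentiated or cycling cells, 0 to 1 of 5 fibroblast markers and none of 3 adipocyte markers. Exonic peaks were also present for 1 to 2 of 4 endothelial, 3 to 4 of 4 leukocyte and 2 of 2 erythroid markers. The part of such cells in the results below was not tested. In these bulk precipitates, fewer cells with an RNA and less of that RNA per cell cannot be told apart.

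The sequences that carry the findings are short stretches of the reference genome. The first is the mature miR-222-3p of RefSeq (chrX:19146901-19146923 of GRCm38.p6, minus strand), with its seed, bases 2 to 8, in capitals.
miR-222-3p: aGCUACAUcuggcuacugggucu

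The next stretches come from copies of mRNAs beside processed pseudogenes, on the pseudogene's strand. Capitals mark the base at which the copy differs from the transcript of the parent gene. Each stretch was chosen as the first with the fewest differences, at least 1, so it gives no measure of how alike copy and parent are. The copy beside Gm6969 (chr12:24638334-24638363, minus strand) matched Cox7a2l, at 97.7% identity over the whole match. That beside Gm5814 (chr17:47410931-47410960, plus strand) matched Mrfap1, at 99.1%.
Gm6969 copy: tcgggactcaggTggtgtctgagcgggaag
Gm5814 copy: tctgcggttgGcgacctcgatatgagtttt

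Another set comes from 8 intervals that share sequence, of which 7 had a coefficient of variation of −log10 p under 10% over the libraries and 1, on chromosome 19, had 17.5%. The 3 shown are on different chromosomes. Capitals mark 24 bases found in 7 of the 8 intervals and in 14 of all merged intervals. The stretches lie at chr15:86195168-86195197, chr8:15520009-15520038 and chr6:44793182-44793211 on the plus strand.
Interval on chromosome 15: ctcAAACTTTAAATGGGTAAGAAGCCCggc
Interval on chromosome 8: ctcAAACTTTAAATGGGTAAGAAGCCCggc
Interval on chromosome 6: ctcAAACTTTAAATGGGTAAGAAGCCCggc

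Other intervals were copies of a gene related to the small-subunit rRNA, and capitals mark 20 bases that 3 of these copies share with it. They lie at chr6:3200995-3201024, chrX:24008423-24008452 and chr19:13054735-13054764 on the plus strand.
Copy on chromosome 6: gccctGTAATTGGAATGAGTCCACTttaaa
Copy on chromosome X: gccctGTAATTGGAATGAGTCCACTttaaa
Copy on chromosome 19: gccaaGTAATTGGAATGAGTCCACTttaaa

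A single member lay in the mitochondrial genome, and 2 nuclear members shared sequence with it. Capitals mark 20 bases present in these 3 intervals and in no other merged interval. The stretches are chrM:15699-15728 and chr12:97061452-97061481 on the plus strand and chr6:9890081-9890110 on the minus strand.
Mitochondrial interval: ccgtgAAACCAACAACCCGCCCACCaatgc
Interval on chromosome 12: ccgtgAAACCAACAACCCGCCCACCaatgc
Interval on chromosome 6: ccgtgAAACCAACAACCCGCCCACCaatgc

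The intervals outside genes lay close to gene 3′ ends more often than gene-free sequence does. Of the 809 on the nuclear chromosomes, 301 (37.2%) were within 5 kb downstream of a 3′ end. Of 2856960 gene-free positions taken every 500 bp, 11.1% were. The share was 17.8% against 4.66% for protein-coding genes, 15.1% against 3.22% for pseudogenes and 4.33% against 3.22% for other genes. Upstream of gene 5′ ends, the corresponding shares within 5 kb were 18.05% and 10.9%. These shares are a description, since intervals are not replicates.

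Most of the excess fell in the first 2 kb. Within 250 bp of the 3′ end there were 62 intervals, of which 39 followed a pseudogene and 19 a protein-coding gene. A further 50 lay between 250 and 500 bp, 60 between 500 bp and 1 kb, and 59 between 1 and 2 kb. Between 2 and 5 kb there were 27, 18 and 26 intervals per kb. The median distance was 415 bp past pseudogenes, 1118.5 bp past protein-coding genes and 1175 bp past other genes.

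**Figure D1:**
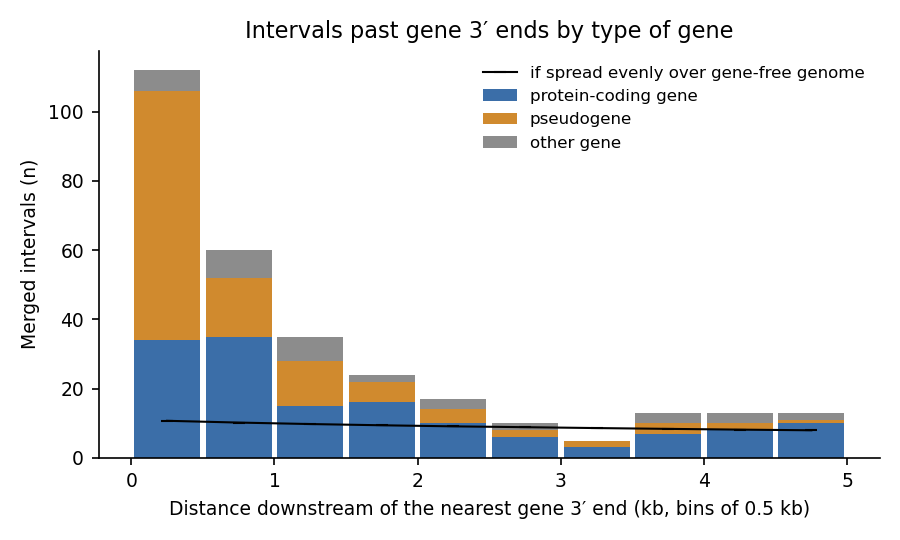
Number of merged intervals (vertical axis) by distance downstream of the nearest gene 3′ end in bins of 0.5 kb (horizontal axis), stacked by type of gene. The line is the number in each bin if the 821 intervals were spread evenly over gene-free positions, about 10.7 in the first bin, where 112 were found.

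The 5 kb limit divides intervals that lay close to each other in distance. Just inside it were an interval 4872 bp past Zkscan3, with a median −log10 p of 82.9, and one 4798 bp past the pseudogene AC116871.1, with 33.0. Just outside were an interval 5034 bp past Zfp42, with 101, and one 5188 bp past Ptgs1, with 52.6. The interval past Zkscan3 matched the 3′UTR of Gdi2, a regulator of Rab GTPases, and that past Zfp42 matched the coding part of Eif4b, a translation initiation factor. Only the last of the 4 lay in a RefSeq exon of the neighbouring gene itself.

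A peak of control-IP replicates 1, 2 and 4 was present in 188, 465 and 279 of the 821 intervals, and one of miR-222-IP replicates 1 and 2 in 361 and 572. The longest peak list, that of miR-222-IP replicate 2, therefore covered the most intervals and the shortest list the fewest. As a share of each library's own peaks, those outside genes made up 1.99% (95% Wilson interval 1.745 to 2.28), 2.50% (2.29 to 2.73) and 1.69% (1.51 to 1.89) in control-IP replicates 1, 2 and 4. The shares were 1.79% (1.62 to 1.98) and 1.54% (1.42 to 1.67) in miR-222-IP replicates 1 and 2. These intervals cover counting error only. Within each experiment the miR-222-IP had a lower share than every control-IP, whereas across experiments the conditions overlapped, since miR-222-IP replicate 1 lay above control-IP replicate 4.

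The mean share was 2.06% ± 0.408 (SD, n = 3) in control-IPs and 1.67% ± 0.179 (SD, n = 2) in miR-222-IPs. Averaged over experiments, the difference of miR-222-IPs from control-IPs was -0.303 percentage points, which did not pass a two-sided exact permutation test of labels within experiments (p = 0.333). With 6 arrangements the smallest p this design allows is 0.167. The interval classes were tested in the same way in a family of 6 comparisons. Peaks past pseudogenes reached that smallest p (p = 0.167 in the exact permutation test), with 0.255% ± 0.00938 (SD, n = 3) of peaks in control-IPs and 0.296% ± 0.0177 (SD, n = 2) in miR-222-IPs. After Benjamini-Hochberg adjustment over the 6 comparisons this exact permutation p was 0.5. The smallest difference in share was that of intervals past genes of other types.

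**Figure D2:**
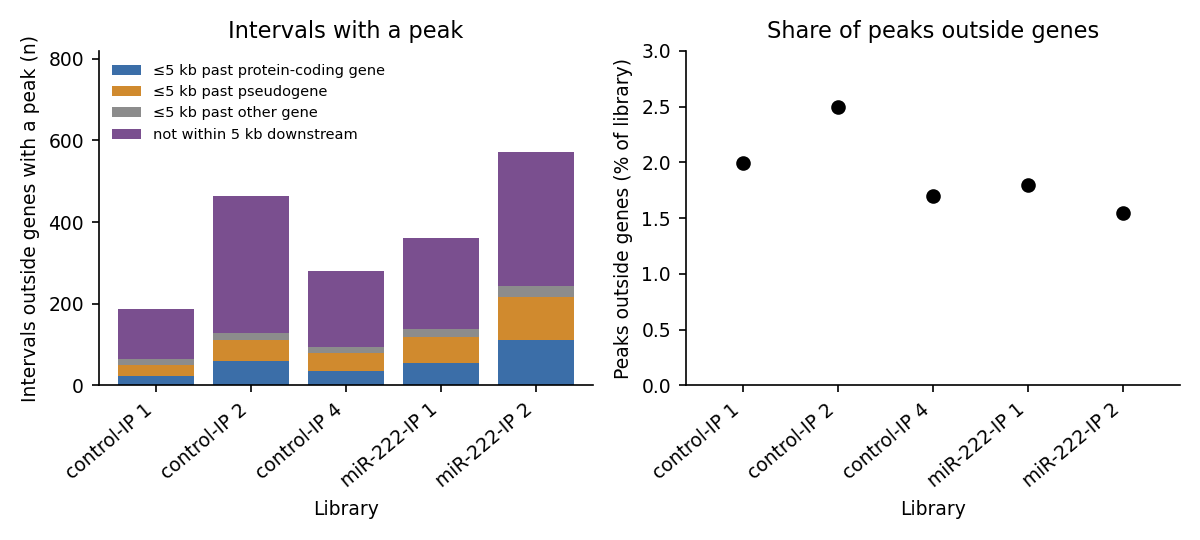
Left, number of intervals outside genes with a peak in each of the 5 libraries, stacked by distance group and type of neighbouring gene. Right, share of each library's peaks that lay outside genes, in percent, 1 point per library. The highest share is 2.50% in control-IP replicate 2 and the lowest 1.54% in miR-222-IP replicate 2.

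Of the 821 intervals, 121 (14.7%) had a peak in all 5 libraries, against 19.2% of all merged intervals. Among intervals in a gene outside its exons, 7.32% had one. At the other end, 409 (49.8%) had a peak in 1 library only, against 39.4% of all merged intervals. Control-IP replicate 2 alone gave 194 of these and miR-222-IP replicate 2 alone gave 184. As a share of the intervals each library held alone, the members were 7.06% of 2749 in control-IP replicate 2 and 1.42% of 12933 in miR-222-IP replicate 2. The shares were 7.53% of 146 in control-IP replicate 1, 1.92% of 104 in control-IP replicate 4 and 4.76% of 378 in miR-222-IP replicate 1. Among those found in control-IP replicate 2 alone, 11.9% matched a transcript by the measure given below. Among those found in miR-222-IP replicate 2 alone, the share was 53.8%. The cause of this difference between libraries was not tested.

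Next, the intervals were compared with the transcripts of all genes that they did not overlap. The neighbouring gene was not left out, and the interval past Glrx matched Glrx itself. A match was counted at 90% identity or more over at least 50% of the interval. By this measure 387 of the 810 intervals with a reference sequence (47.8%) matched a transcript. The share was 9.93% of all merged intervals, and 16.3% of those in a gene outside its exons, when the genes they overlapped were left out. The count was 115 of 122 past pseudogenes, 29 of 144 past protein-coding genes, 11 of 36 past other genes and 232 of 519 elsewhere. In the genome, 44.7% of members had 2 or more places at 95% identity over 80% of their length. The same was true of 8.99% of 779 exonic intervals taken at regular spacing. Reads that map to several places can be assigned to any of them, and how they were assigned is not given in the sources used here.

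The intervals past pseudogenes were, for the most part, copies of the 3′UTR of another gene. Of the 122 intervals, which followed 115 genes, 113 followed a processed pseudogene. In 104 of the 115 matches the matched part was a 3′UTR, in 4 it was coding and in 7 the transcript was non-coding. The match ran along the strand of the pseudogene in 111 of 115. The pseudogene itself, compared in the same way, had its best match to the same gene in 92. The median identity was 98.7% and the lowest 90.5%, while 12 matches had an identity of 100%. The parents included Actg1, which encodes cytoplasmic γ-actin, H3f3a, which encodes histone H3.3, and the GTPase gene Arf1.

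The parent gene usually had a peak over the same segment. An interval covered the matched segment of the parent in 103 of the 115 cases. The libraries gave 256 peaks at these 103 copies, and in 249 of them (97.3%) the same library also had a peak over the parent. In the other direction, 54.8% of 454 library peaks over the parents had one at the copy. The median −log10 p was higher over the parent in 85 pairs and higher at the copy in 18, with a median log2 ratio of parent to copy of 1.41. Where copy and parent are identical a read fits both, and how such reads were assigned is not given. These values may therefore not be independent, and reads of the 2 loci cannot be told apart from the peak lists.

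**Figure D3:**
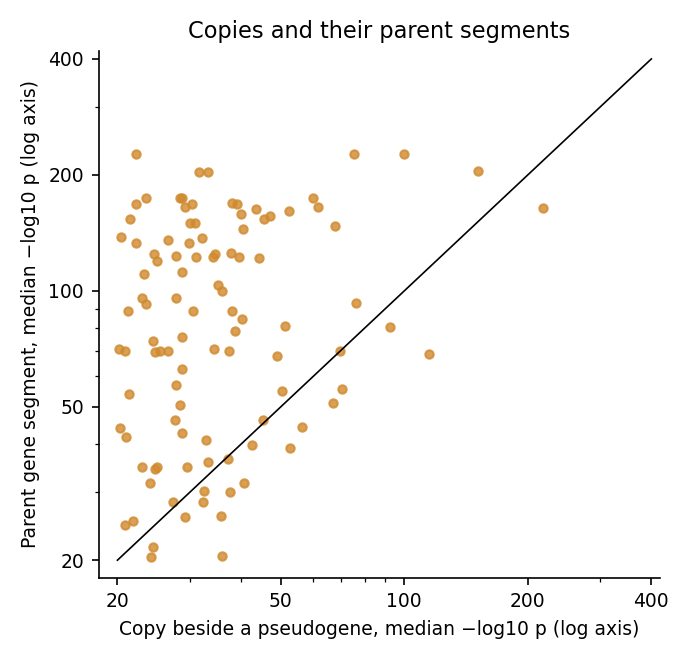
Median −log10 p of 103 copies beside pseudogenes (horizontal log axis) and of the matched segment of their parent gene (vertical log axis), 1 point per pair, with the line of equal values. Of the points, 85 lie above the line and 18 below it.

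The 3 highest of these copies with a parent differed in how they stood to it. The interval 305 bp past Gm6969 (chr12:24638024-24638363) matched the 3′UTR of Cox7a2l, a factor of respiratory chain assembly, at 97.7% identity. Its −log10 p was 187, 226 and 170 in control-IP replicates 1, 2 and 4, against 218 and 258 for miR-222-IP replicates 1 and 2. Over the Cox7a2l segment the values were 163, 202, 163, 164 and 219 in the same order. The copy thus had the higher −log10 p in all 5 libraries.

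The interval 193 bp past Gm5814 (chr17:47410931-47411780) matched the 3′UTR of Mrfap1 at 99.1% identity and had 3 places in the genome. Its −log10 p was 130, 36.8 and 151 in control-IP replicates 1, 2 and 4, against 166 and 207 for miR-222-IP replicates 1 and 2. Over the Mrfap1 segment the values were 194, 97.8, 205, 214 and 207. Control-IP replicate 2 was the lowest library at both places.

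The interval 161 bp past Gm7367 (chr7:60156262-60156815) matched the 3′UTR of Ubald2 at 99.8% identity. It had 60.4, 85.0 and 137 in control-IP replicates 1, 2 and 4, against 115 and 221 for miR-222-IP replicates 1 and 2. The Ubald2 segment had 32.3, 115, 68.7, 66.4 and 131. Here the copy was higher in every library except control-IP replicate 2.

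Intervals past protein-coding genes matched a transcript less often, 29 of 144 against 115 of 122 past pseudogenes. Some intervals lay in a RefSeq exon of the neighbouring gene itself, that is, in a longer form of it than GENCODE M21 holds. This trait was shared by both groups, with 58 of 122 past pseudogenes and 68 of 144 (47.2%) past protein-coding genes. Of the 144, a further 14 lay in an exon of another RefSeq gene. Another 62 lay in no RefSeq exon, at a median distance of 1626 bp. Of the 62 same-gene intervals without a transcript match, 32 had a peak in 1 library only and 3 in all 5, with a median −log10 p of 29.9. In 48 of the 62 (77.4%) the gene also had an interval over its annotated exons. Over the whole group of 144, this was so for 97.

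Soga1 had the most intervals past its end. They began 172 bp, 1641 bp and 3569 bp downstream, and all 3 lay in a RefSeq exon of Soga1. The first (chr2:157015084-157015626) had no peak in control-IP replicate 1 and −log10 p of 53.7 and 48.0 in control-IP replicates 2 and 4, against 46.2 and 35.5 for miR-222-IP replicates 1 and 2. The second was present in control-IP replicate 2 and both miR-222-IPs, at 27.1 to 31.2, and the third in control-IP replicate 2 alone, at 36.7. Klhl11, a Kelch-type adaptor gene, had 2 intervals 952 bp and 2194 bp downstream, with no RefSeq exon there. The closer one was listed by 3 libraries, both control-IPs and the miR-222-IP of experiment 1, at 23.0 to 30.8.

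Gm25047, an snRNA gene, was the other gene named for its number of intervals, and both intervals past it lay in RefSeq exons of Lonrf3. The longest stretch past a single gene was 2303 bp, an interval 3980 bp past the lincRNA gene 4930524C18Rik, over an exon of the RefSeq gene Gm31003. Its −log10 p was 91.4, 63.6 and 94.5 in control-IP replicates 1, 2 and 4, against 94.0 and 94.7 for miR-222-IP replicates 1 and 2. In all, the 302 downstream intervals followed 283 genes, and 18 genes had 2 or more.

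A peak in all 5 libraries was found past 9 protein-coding intervals. The highest was 377 bp past Tlr9, which encodes a receptor of unmethylated DNA (chr9:106227261-106228939). Its −log10 p was 107, 62.3 and 108 in control-IP replicates 1, 2 and 4, against 101 and 70.2 for miR-222-IP replicates 1 and 2. The interval past Edem1, a gene of endoplasmic reticulum protein disposal, had 53.1, 39.7 and 58.4 in the control-IPs and 61.2 and 57.8 in the miR-222-IPs. Past Cd36, which encodes a fatty acid transporter, the values were 48.2, 54.0 and 44.1 against 41.5 and 37.0, so that both miR-222-IPs lay below the control-IPs.

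Few protein-coding genes had a downstream interval at all, 134 of 22028 annotated (0.608%). Of 44 muscle structure genes, 26 genes of myogenic regulation, 20 extracellular matrix genes and 16 genes of RISC and mRNA decay, none had an interval within 5 kb past its 3′ end, which at that share says nothing particular about the lists. In the same libraries 42, 21, 9 and 16 of these genes had an interval over an exon. Srl, which encodes the sarcoplasmic reticulum protein sarcalumenin, is a muscle gene outside these lists. It had an interval 1522 bp downstream, in its own RefSeq exon, listed only by miR-222-IP replicate 2.

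Away from gene 3′ ends, the 519 remaining intervals lay at a median of 27.0 kb from the nearest 3′ end, and 77 lay more than 100 kb away. Of the 519, 93 were within 5 kb upstream of a gene 5′ end. A transcript match was present in 232, at a median identity of 98.3%, and in 109 of them the matched gene was protein-coding. Here 93 intervals matched 1 other gene and 37 matched 10 or more. In 177 the sequence was shared with another member over at least 50 bases at 95% identity, and 123 lay in a RefSeq gene.

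The interval farthest from any gene, 379 kb from the nearest gene end, was itself a copy. It lay at chr8:101104868-101105742 and was identical over 97.7% of its length to the 3′UTR of Arl5a, which encodes an ARF-like GTPase. Control-IP replicates 1 and 4 gave a −log10 p of 23.9 and 21.4, miR-222-IP replicates 1 and 2 gave 27.8 and 69.8, and control-IP replicate 2 gave no peak. The second farthest, on chromosome 6 at 282 kb, was a relative of the mitochondrial interval. The third, at chr17:4361045-4361362 and 239 kb, had a peak in control-IP replicate 2 alone and no match.

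Of the distal intervals with the highest values, 4 had nearly the same −log10 p in every library. The interval at chr15:86194686-86195319 had 299, 309 and 294 in control-IP replicates 1, 2 and 4, against 300 and 306 for miR-222-IP replicates 1 and 2. At chr8:15519716-15520121 the values were 263, 264 and 265 against 264 and 267. At chr18:68691984-68692371 they were 246, 248 and 247 against 246 and 246. At chr3:5860257-5860883 they were 279, 264 and 278 against 275 and 278. The coefficient of variation over the 5 libraries was 0.444% to 2.24% for these 4 intervals, although the lists differed in length by several fold.

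A further pair of intervals of this kind stood at the top of the downstream group. The interval 2780 bp past Gm11668 (chr11:109011562-109012199) had 268, 267 and 267 in the control-IPs and 272 and 267 in the miR-222-IPs. It was 1 of the 7 intervals past pseudogenes that matched no other transcript. The interval 4426 bp past Gm27679 (chr9:3258723-3259015) had 148, 142 and 150 in the control-IPs and 150 and 157 in the miR-222-IPs.

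**Figure D4:**
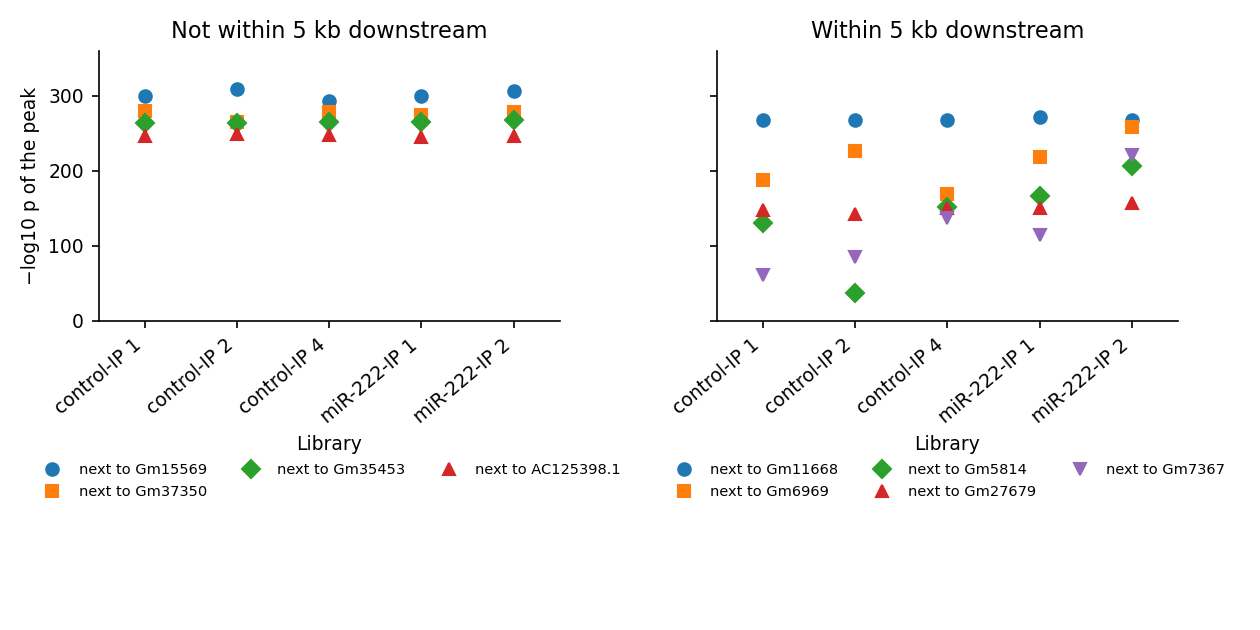
−log10 p of 4 distal and 5 downstream intervals with high medians, among those with a peak in all 5 libraries (vertical axis), by library (horizontal axis). Intervals next to Gm15569, Gm37350, Gm35453, AC125398.1, Gm11668 and Gm27679 stay level across libraries, whereas those next to Gm6969, Gm5814 and Gm7367 vary.

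A level −log10 p was more frequent outside genes. The coefficient of variation was under 10% in 24 of the 121 members with a peak in all 5 libraries (19.8%), against 6.07% of all merged intervals with a peak in all 5. Of the 24, 21 were distal, 1 followed a pseudogene, 2 another gene and none a protein-coding gene. Of the 121, these numbers were 89, 16, 7 and 9. The median was 27.4% over the 121 members and 36.3% over the 7935 intervals in all. Among members with a median above 100, the share was 17 of 33, against 282 of 1562 of all intervals at that level.

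Many of the level intervals belonged to sets with shared sequence. In all, 27.0% of members fell into 35 such sets, of which 16 had 2 members and 8 had 5 or more. The set of 8 shown above had a peak in all 5 libraries at each of its 8 places, on 6 chromosomes. Its median −log10 p was 195, ranging from 95.1 to 300. A set of 5 on 5 chromosomes, of which 3 had Mir6240 as the closest transcript, had interval medians from 39.1 to 278. In a set of 3 with a median of 213, the closest transcript of 2 was Lars2, the mitochondrial leucyl-tRNA synthetase gene. The stretch shared by the set of 8 resembles large-subunit rRNA as known from other work. A partial RefSeq gene of that rRNA was included in the sequence search, but its outcome is not given here. The resemblance was not tested further.

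For small-subunit rRNA a related gene of RefSeq, Rn18s-rs5, was compared, and 6 members had sequence in common with it. The longest match, 887 bases at 98.2% identity, was at chr6:3200701-3201656, where −log10 p was 214, 217 and 210 in control-IP replicates 1, 2 and 4, against 212 and 210 for miR-222-IP replicates 1 and 2. The interval at chr1:56781961-56782442 had 101, 116 and 98.2 against 95.6 and 101. Coefficients of variation were 1.32% and 7.86% at these places and 11.97% to 41.5% at the other 4, whose medians were 28.7 to 88.8.

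The largest set, of 77 members on 17 chromosomes, had lower and more variable values. Its median −log10 p was 32.9, with 15 members in all 5 libraries, and the median coefficient of variation of those was 45.0%. The closest transcript was that of Gm42427, a locus of annotation type TEC, for 44 of the 77. A set of 23 was soft-masked, that is, marked as repeat in the reference, over a median of 85.4% of its bases and had a median −log10 p of 23.8. More than 50% of the bases were soft-masked in 20.99% of all members with sequence, against 1.60% of all merged intervals. Among intervals in a gene outside its exons the share was 9.60%.

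The mitochondrial member (chrM:15479-16010) began 123 bp past the tRNA gene mt-Tt. It had a peak in control-IP replicate 1, at 29.6, and in miR-222-IP replicates 1 and 2, at 23.5 and 22.9. Its nuclear relatives had higher values. The interval at chr12:97061341-97061831, which shared 336 bases with it at 99.7% identity, had 105, 73.2 and 37.6 in control-IP replicates 1, 2 and 4, against 108 and 105 for miR-222-IP replicates 1 and 2. The interval at chr6:9889857-9890152 shared 260 bases at 97.7% identity and had 66.9 and 43.7 in control-IP replicates 1 and 2, against 62.1 and 35.6 for the miR-222-IPs, with no peak in control-IP replicate 4.

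A remaining 231 members (28.1%) had no transcript match, no RefSeq gene and no sequence shared with another member. Of these, 179 were distal and 43 lay within 5 kb upstream of a gene 5′ end. A peak in 1 library only was present in 73.6% of them, against 40.5% of the other members, and 117 of the 231 were found in control-IP replicate 2 alone. Their median −log10 p was 27.6, and 23 had a peak in all 5 libraries.

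To ask which intervals differed with miR-222, the −log10 p values of the 121 members with a peak in all 5 libraries were scaled by the median of ratios over all 7935 such intervals. An interval was counted when the miR-222-IP of each experiment lay on the same side of the control-IPs of that experiment, of which experiment 2 had 1. Both miR-222-IPs lay above in 13 members (10.7%), against 17.4% of all intervals, and below in 38 (31.4%), against 18.4%. Of the 38, 35 were distal, as were 89 of the 121. No test was run per interval, and the exact permutation test cannot go below 0.167 here.

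The direction depended on the scaling. The 24 level intervals contributed 19 of the 38. The scaling divides values by 0.706, 0.972 and 0.989 in control-IP replicates 1, 2 and 4 and by 1.06 and 1.49 in miR-222-IP replicates 1 and 2, so a value that is equal in every library has a lower ratio after it. Choosing intervals by a low coefficient of variation thus fixes their ratios near 0 before scaling and below 0 after it, and the 24 carry no separate result on miR-222. Without scaling, 51 members (42.1%) lay above and 7 (5.79%) below, against 50.1% above and 2.75% below over all intervals. The median log2 ratio of all intervals was then 0.46. Among the 97 other members, 13 lay above (13.4%) and 19 below (19.6%) after scaling.

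**Figure D5:**
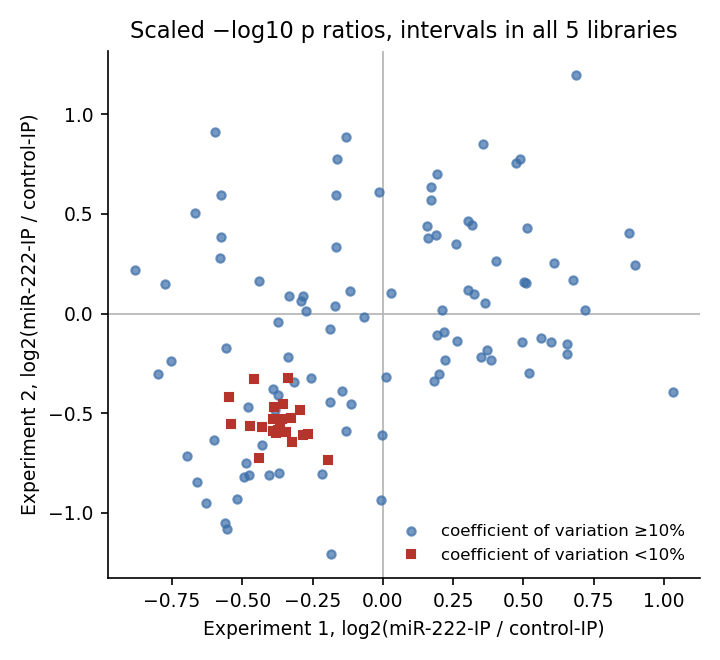
Log2 ratio of miR-222-IP to mean control-IP in experiment 1 (horizontal axis) and experiment 2 (vertical axis), from scaled −log10 p, for the 121 members with a peak in all 5 libraries. Red squares are the 24 members with a coefficient of variation under 10%, whose ratios the choice by low variation fixes below 0 after scaling, and blue circles are the other 97.

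By peak presence, 42 members (5.12%) had a peak in both miR-222-IPs and in no control-IP, against 6.37% of all merged intervals. No member had a peak in all 3 control-IPs and in neither miR-222-IP, a pattern found in 4 of all merged intervals (0.00967%). Of the 42, 11 followed a protein-coding gene, 11 a pseudogene and 19 were distal. Where a library lists no peak, its enrichment was under the threshold, and the RNA may still have been present.

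Among intervals at which each miR-222-IP lay above the control-IPs of its experiment, the 3 largest mean ratios were found at unlike places. A larger one, past Pgam1-ps2, fell outside this limit, with log2 ratios of 0.69 and 1.199 but control-IP replicate 1 above miR-222-IP replicate 1 after scaling. The interval at chr9:111526585-111526837, fully soft-masked and with 64 places in the genome, had 24.7, 65.7 and 71.1 in control-IP replicates 1, 2 and 4, against 99.4 and 142 for miR-222-IP replicates 1 and 2. The interval 1298 bp past Atp7a, which encodes a copper-transporting ATPase (chrX:106126225-106127196), lay in an Atp7a exon of RefSeq and had 29.8, 30.7 and 37.3 against 54.8 and 96.3. Its log2 ratio was 0.49 in experiment 1 and 0.78 in experiment 2, and the miR-222-IPs did not overlap the control-IPs before scaling either. The interval at chr9:36050808-36051691, a copy of the 3′UTR of Lrrc58 at 99.5% identity, had 23.6, 28.0 and 30.1 against 45.7 and 76.5.

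The 3 smallest mean ratios were at distal intervals. At chr19:61198503-61198765 the −log10 p was 45.6, 53.6 and 44.1 in control-IP replicates 1, 2 and 4, against 43.2 and 31.4 for miR-222-IP replicates 1 and 2, with log2 ratios of -0.55 and -1.08. At chr17:34996740-34999471, the longest member with 2732 bp, it was 148, 156 and 133 against 133 and 97.1. This interval overlapped an exon of the RefSeq gene D17H6S56E-5. At chrX:4899270-4899541 it was 66.2, 89.99 and 66.5 against 63.8 and 51.7. Each miR-222-IP was below the control-IPs of its own experiment before scaling too.

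The complement of the miR-222 seed, the 7-mer ATGTAGC, was searched on both strands. It was present in 39 of 810 members (4.81%) and in 5.21% of all merged intervals. In the central 200 bp, which sets aside differences in width, it was present in 1.60% of members and 1.86% of all intervals. Intervals past protein-coding genes held it in 17 of 144 and in 3.47% of central windows. Of the 39, 6 had a peak in all 5 libraries, of which 2 had both miR-222-IPs above the control-IPs and none had both below. A peak in both miR-222-IPs and no control-IP was present in 1 of the 39.

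Central windows held the complements of the other miRNA seeds searched about as often as the intervals at large. The 7-mer for miR-1 and miR-206, ACATTCC, was in 1.98% of members and 2.64% of all intervals. For miR-133, GGACCAA was in 2.59% and 2.12%, and for let-7, CTACCTC was in 2.72% and 2.61%. Hexamers of polyadenylation signals were more frequent in central windows, but over whole intervals AATAAA was in 41.6% of members and 40.3% of all intervals, and ATTAAA in 33.0% and 31.3%. In central windows the hexamer AATAAA was in 21.6% of member windows and 15.6% of all, reaching 32.0% past pseudogenes and 17.4% past protein-coding genes. ATTAAA was in 16.3% and 12.2%, with 25.4% past pseudogenes and 18.1% past protein-coding genes. Runs of 8 A were in 9.88% and 4.66%. A match is a description of the letters and not a binding site.

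The 5 highest members with the miR-222 7-mer are shown with the 7-mer in capitals. The seed could pair there only with RNA of the strand shown, and the lists hold no strand. In the downstream group, 14 of the 22 members with the 7-mer held it on the strand of the gene. They lie at chr12:97061353-97061382, chr11:96081060-96081089, chr13:49225539-49225568, chr16:4477179-4477208 and chr6:9889862-9889891, on the plus strand except for that on chromosome 16.
Interval on chromosome 12: tactacaagtcATGTAGCcttgcttcaagt
Interval past Gm22423: atgttggaacaATGTAGCaggaggtatcag
Interval past Susd3: ttaatgtattaATGTAGCtctgctaagcta
Interval past Srl: ttgagatagaatctcactATGTAGCccaag
Interval on chromosome 6: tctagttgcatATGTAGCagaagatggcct

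Those on chromosomes 12 and 6 are the nuclear relatives of the mitochondrial interval described above. The interval past Gm22423 matched the 3′UTR of Lars2 over 54.8% of its length, and its −log10 p was 93.6, 66.3 and 79.6 in control-IP replicates 1, 2 and 4, against 82.1 and 90.4 for miR-222-IP replicates 1 and 2. The interval 4718 bp past Susd3 had no peak in control-IP replicate 1, 40.9 and 53.0 in control-IP replicates 2 and 4, against 65.8 and 127 for the miR-222-IPs. Of the 4 with a peak in any control-IP, it alone had both miR-222-IPs above every listed control-IP of either experiment. The interval on chromosome 12 had each miR-222-IP above the control-IPs of its own experiment before scaling, but not after it. The interval past Srl was listed only by miR-222-IP replicate 2, at 54.0.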

How the data were processed

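RISC-IP RNA of MSC myocytes was measured in 6 libraries. The cDNA was amplified with the Ovation RNA-Seq system. Alignment was to mm10 by SOAPSplice. From each library the authors called peaks using the default settings of macs2 and deposited each peak's position with its −log10 p, keeping values over 20. Replicates were not pooled. Treatment of reads that map to several places and the control track are not given in the sources used here. The lists hold no strand. Groups came from the labels, which number no cultures, so p measures the spread between libraries, which may be technical.

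Merging used pandas 2.3.3 and numpy 2.4.6 under Python 3.11.15, permutation tests enumerated every arrangement of labels, scipy 1.17.1 gave Wilson intervals and adjusted p-values, and the highest −log10 p of a library's peaks was taken per interval. Genes came from GENCODE M21, with scaffold names matched. Members were compared with GENCODE transcripts by blastn 2.17.0. Sequence and soft-masking came from RefSeq's GRCm38.p6 through pysam 0.24.0, and 11 members on scaffolds had none. RefSeq genes were a second annotation.

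Members and lists were chosen with earlier results of these data known. Named intervals were the 5 highest medians per distance group, genes with most or longest coverage, the 3 largest and 3 smallest ratios among intervals beyond the control-IPs of both experiments in 1 direction, the 3 farthest from genes, the 5 highest with the seed 7-mer, those at the 5 kb limit, and list genes. Of these, 1 distal interval is not reported here. Tlr9, Edem1, Cd36, Pgam1-ps2, the level, rRNA-like and mitochondrial intervals and the parents beside counts were chosen after their values were seen. Interval functions and the exact permutation test were tested on simulated data, and 83 of 83 checks passed. The alternatives are given in the closing section.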

Additional observations from a re-analysis of the deposited data

Results flagged for a closer look

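The interval 305 bp past Gm6969, the copy of the Cox7a2l 3′UTR, had ratios of opposite sign in the 2 experiments after scaling, that of experiment 2 being very small. Its log2 ratio of miR-222-IP to control-IP was -0.27 in experiment 1, where miR-222-IP replicate 1 lay below both control-IPs, and 0.013 in experiment 2, where miR-222-IP replicate 2 lay above control-IP replicate 4. The difference between experiments was not tested. Other named intervals also had ratios of opposite sign, but in none of them did the miR-222-IP lie beyond all control-IPs of its experiment in both experiments. Beyond the named intervals the same pattern occurred with larger ratios, so it was not particular to this copy. Past Disc1 the log2 ratios were -0.58 and 0.60 in experiments 1 and 2, and past Nkain1 they were 0.65 and -0.20. Groups of 2 and 3 libraries are too small for the search for outlying samples.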

How the results depend on the processing

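The count of 821 intervals stayed within 1.5 times under 11 of 15 alternatives. It was 245 with −log10 p over 50, 2274 with protein-coding and lncRNA genes only, 412 with a peak in at least 2 libraries and, chosen after seeing the data, 511 with RefSeq gene bodies added. Leaving out 1 library gave 628 to 819, the lowest without control-IP replicate 2. The share within 5 kb downstream, 36.8%, was 13.5% with protein-coding and lncRNA genes only, 19.8% with gene bodies extended by 1 kb, 32.2% with all 6 libraries, 20.95% within 1 kb, 46.0% within 10 kb and 19.4% for protein-coding 3′ ends, and 35.0% to 42.2% leaving out 1 library, the highest without control-IP replicate 2.

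Experiments served as blocks. With no replicate block the difference in share of peaks outside genes was -0.395 points (exact permutation p = 0.4), against -0.303 with the block. With no replicate block 41 of 121 members lay above or below in place of 51. They were 9.09% above and 24.8% below, against 10.9% and 13.2% of all intervals. Leaving out 1 library gave differences of -0.454 to -0.152. The 51 were 523 of 821 (75 above, 448 below, or 9.14% and 54.6%, against 10.1% and 39.2% of all intervals) with missing peaks at the lowest listed value. With scaling to the total −log10 p, 1 lay above and 51 below (0.826% and 42.1%, against 1.84% and 35.2% of all intervals). Leaving out a control-IP of experiment 1 admits more intervals and leaves fewer control-IPs to lie beyond. Without control-IP replicate 2 the count was 99 of 147 (22.4% above and 44.9% below, against 28.6% and 30.1% of all intervals). Without control-IP replicate 1 it was 103 of 181 (23.8% above and 33.1% below, against 24.95% and 24.88% of all intervals). Without control-IP replicate 4 or either miR-222-IP an experiment lacks an arm, so no count was made. The 39 members with the seed 7-mer were 13 in central windows and 132 for the 6-mer. In the downstream group only, 14 held it on the strand of the gene, against 22 on either strand. Depth is unknown, and absent peaks are not absent RNA.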

Other observations

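Control-IP replicate 3, whose wide peaks kept it out of the comparisons, held 3619 peaks on 10 chromosomes. Of these, 87 (2.40%) overlapped no gene. Its peaks covered 257 of the 369 intervals outside genes on those chromosomes, and 84 were covered by peaks of up to 5000 bp. With this library included, chosen after seeing the data, the difference in share between conditions was -0.481 points (two-sided exact permutation p = 0.222).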
